A study of Homo sapiens with 28 samples.

Results

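Linoleic acid given alone to HT-1080 cells was set against vehicle, gene by gene. The comparison takes the 4 libraries labelled LA and the 4 labelled DMSO, 8 of the 28 libraries of the series, and was chosen by those labels alone. HT-1080 is a human fibrosarcoma line, wild type per the labels, and all groups used here are cultures of it kept overnight with their treatment. LA cultures received 80 µM linoleic acid and DMSO cultures the vehicle. For comparison, the text also uses RSL3+LA cultures (10 nM RSL3 with 80 µM LA), CLA18:2 cultures (80 µM of a conjugated linoleic acid) and RSL3 cultures (10 nM RSL3), 4 libraries each. The LA and CLA18:2 samples are numbered in a run apart from the DMSO, RSL3 and RSL3+LA samples. LA against DMSO crosses that division, and RSL3+LA against RSL3 does not. The part of any difference between the runs was not tested. RSL3 blocks GPX4, a selenoenzyme that detoxifies peroxidized membrane lipids, and cells treated with it can die by ferroptosis, which depends on iron and on the oxidation of polyunsaturated lipids. The series asks how different fatty acids and RSL3 relate to that death, and the pair described here asks what linoleic acid does to the transcriptome when no ferroptosis inducer is present.

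Linoleic acid is an omega-6 fatty acid with a pair of double bonds separated by a methylene group, and cells take it up, activate it to an acyl-CoA and place it in membrane lipids, store it, or burn it in mitochondria and peroxisomes. Long-chain fatty acids and their derivatives bind PPAR receptors, which pair with RXR on the promoters of fatty acid oxidation genes. Polyunsaturated fatty acids are also known to dampen the SREBP transcription factors, which drive synthesis of cholesterol and of unsaturated fatty acids, and oxidized lipids engage the stress factor NRF2.

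Each library is a column of raw gene counts. Totals ran from 17687170 to 24286824 counts in the 8 libraries, and 16325 of 60286 listed genes passed the filter on low counts. Levels are given as CPM, counts scaled to a common library size. Differences are log2 fold changes ± SE of LA over DMSO, n = 4 libraries per group throughout, and adjusted p values come from edgeR's quasi-likelihood test with Benjamini-Hochberg adjustment over all 16325 genes. A gene is said to have risen or fallen where that adjusted p lies under 0.05. The series text calls the 4 cultures of a group independent, and p values measure only the spread between libraries. That spread is pooled over all 28 libraries in 7 groups, so p values and SEs also carry groups not compared here. The spread within groups (common biological coefficient of variation) ran from 4.52% in DMSO to 19.9% in CLA18:3 libraries, another group of the series, with LA at 7.27%. Gene symbols are those in the authors' file, and positions are those of GENCODE release 29 on GRCh38.

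LA replicate 4 stood apart from the other LA libraries. It held 0.451% of its counts on the 13 mitochondrially encoded mRNAs, where the other LA libraries held 1.02 to 1.44% and DMSO libraries 1.26 to 1.49%. At a common total it had 21254 genes with a count, against 22271 to 22563 in the other LA libraries, and it lay at 26.1 on the second principal component, with the others between -16.3 and -9.91. All 13 mitochondrially encoded mRNAs had negative fold changes (median -0.48) and none passed the test. Without LA replicate 4 the test called 1036 genes, 1002 of them among the calls made with it. Leaving out any 1 of the 8 libraries gave 1025 to 1146 calls, with 1002 to 1091 of the calls kept. Genes detected at a common total numbered 22135 ± 600 in LA libraries and 22758 ± 94.5 in DMSO libraries (SD), a difference of -622.5 (exact two-sided permutation test, p = 0.0286, the smallest p that 4 against 4 allows). Without LA replicate 4 that difference was -328.8 (exact permutation p = 0.0571), and for genes with at least 5 counts it was -171.5 over all 8 libraries (exact permutation p = 0.0857). The mitochondrial share was 1.03 ± 0.421% in LA libraries and 1.40 ± 0.101% in DMSO libraries (exact two-sided permutation test, p = 0.114).

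In all, 1358 genes changed, 8.32% of those tested, of which 801 rose (4.91%) and 557 fell (3.41%). A fit to the 8 libraries alone called 2394, of which 1235 were higher and 1159 lower. Most changes were small: the median size among the called genes was 0.302 on the log2 scale, and 56 of them reached 2-fold, 27 up and 29 down. The median over all tested genes was 0.002. Protein-coding genes made up most of the calls, with 776 risen and 503 fallen of 12611 tested (10.1%), while 17 of 1919 long noncoding RNA genes rose and 34 fell (2.66%).

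Among genes with a mean of at least 2 CPM and no overlap between the groups, the largest rise was in the entry step of mitochondrial fatty acid oxidation. CPT1A, which makes acylcarnitines from long-chain acyl-CoA at the outer mitochondrial membrane, had 42.9, 40.7, 43.9 and 48.1 CPM in LA libraries, against 9.52, 11.3, 9.46 and 8.48 CPM in DMSO libraries. The 4 LA libraries lay close together, far above every DMSO library. The log2 fold change was 2.18 ± 0.089, adjusted p = 6.9e-19. SLC25A20, the carrier that moves acylcarnitines across the inner membrane, had 23.9, 22.5, 20.6 and 23.6 CPM in LA libraries, against 10.3, 8.01, 8.38 and 10.7 CPM in DMSO libraries, again without overlap (1.29 ± 0.12, adjusted p = 6.2e-10). Inside the matrix, ACAA2, the thiolase that closes each round of oxidation, had 60.3, 53.5, 62.4 and 61.8 CPM in LA libraries, against 30.3, 28.2, 31.2 and 30.6 CPM in DMSO libraries (0.99 ± 0.059, adjusted p = 4.6e-14). ACADVL, the very-long-chain acyl-CoA dehydrogenase, rose by 0.47, and the electron transfer flavoprotein genes that take its electrons rose as a set, ETFA by 0.24, ETFB by 0.46 and ETFDH by 0.51. These are 7 of 26 tested genes of mitochondrial fatty acid import and oxidation, with none fallen and a list median of 0.051. The remaining steps stood near 0, among them CPT2 at 0.093, the medium-chain dehydrogenase ACADM at -0.002 and the trifunctional enzyme subunits HADHA at 0.094 and HADHB at 0.16. The count of risen members stayed at 7 when any 1 of the 8 libraries was left out, while 1 member was called lower without LA replicate 3, by limma voom, by DESeq2 and in a fit to the 8 libraries alone.

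Some peroxisomal oxidation genes rose as well. ECH1, a dienoyl-CoA isomerase that handles double bonds in the chain, had 21.2 to 25.7 CPM in LA libraries, against 12.7 to 13.5 CPM in DMSO libraries (0.78 ± 0.081, adjusted p = 1.2e-08). Catalase, CAT, rose by 0.48, and the multifunctional enzyme HSD17B4 rose by 0.22. Of 19 tested members 4 rose and none fell, against 4.91% risen and 3.41% fallen over all genes. The list median was 0.112, with 18 members positive, and 3 rose when any 1 library was left out.

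A part of the genes that PPAR receptors control in many tissues rose. ANGPTL4, a secreted inhibitor of lipoprotein lipase, had 1.90, 1.90, 1.93 and 2.53 CPM in LA libraries, against 0.368, 0.0926, 0.129 and 0.112 CPM in DMSO libraries. Every LA library exceeded every DMSO library, but DMSO levels lay near the detection floor, so the fold change of 3.54 ± 0.49 (adjusted p = 2.7e-06) is rough. Of 24 tested PPAR-responsive genes 9 rose and 1 fell (median 0.263), against 4.91% risen and 3.41% fallen over all genes. The risen members included the oxidation genes CPT1A, SLC25A20, ACAA2, ACADVL, ETFDH and ECH1. IMPA2, an inositol monophosphatase, rose by 1.10, and KLF10, a transcription factor, rose to 70.5 to 77.1 CPM in LA libraries, against 51.9 to 57.4 CPM in DMSO libraries (0.42 ± 0.051). TXNIP, an inhibitor of glucose uptake and thioredoxin, was the member that fell, with 14.1 to 19.2 CPM in LA libraries, against 22.03 to 24.2 CPM in DMSO libraries (-0.50 ± 0.086). PLIN2, which coats lipid droplets, was hardly detected, with 0.0513 to 0.245 CPM in LA libraries, against 0 to 0.0526 CPM in DMSO libraries, and PDK4 had no counts in these libraries, which allows up to 3 counts in each. Among the receptors, PPARD had 150 to 166 CPM in LA libraries, against 159.5 to 175 CPM in DMSO libraries and PPARA 8.76 to 9.43 CPM in LA libraries, against 7.31 to 9.99 CPM in DMSO libraries, neither past the test (-0.053 and -0.010). PPARG had 13 counts over the LA libraries and 8 over the DMSO libraries, too few to test. RXRA, their shared partner, rose by 0.28 ± 0.064 (adjusted p = 0.00357).

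**Figure D1:**
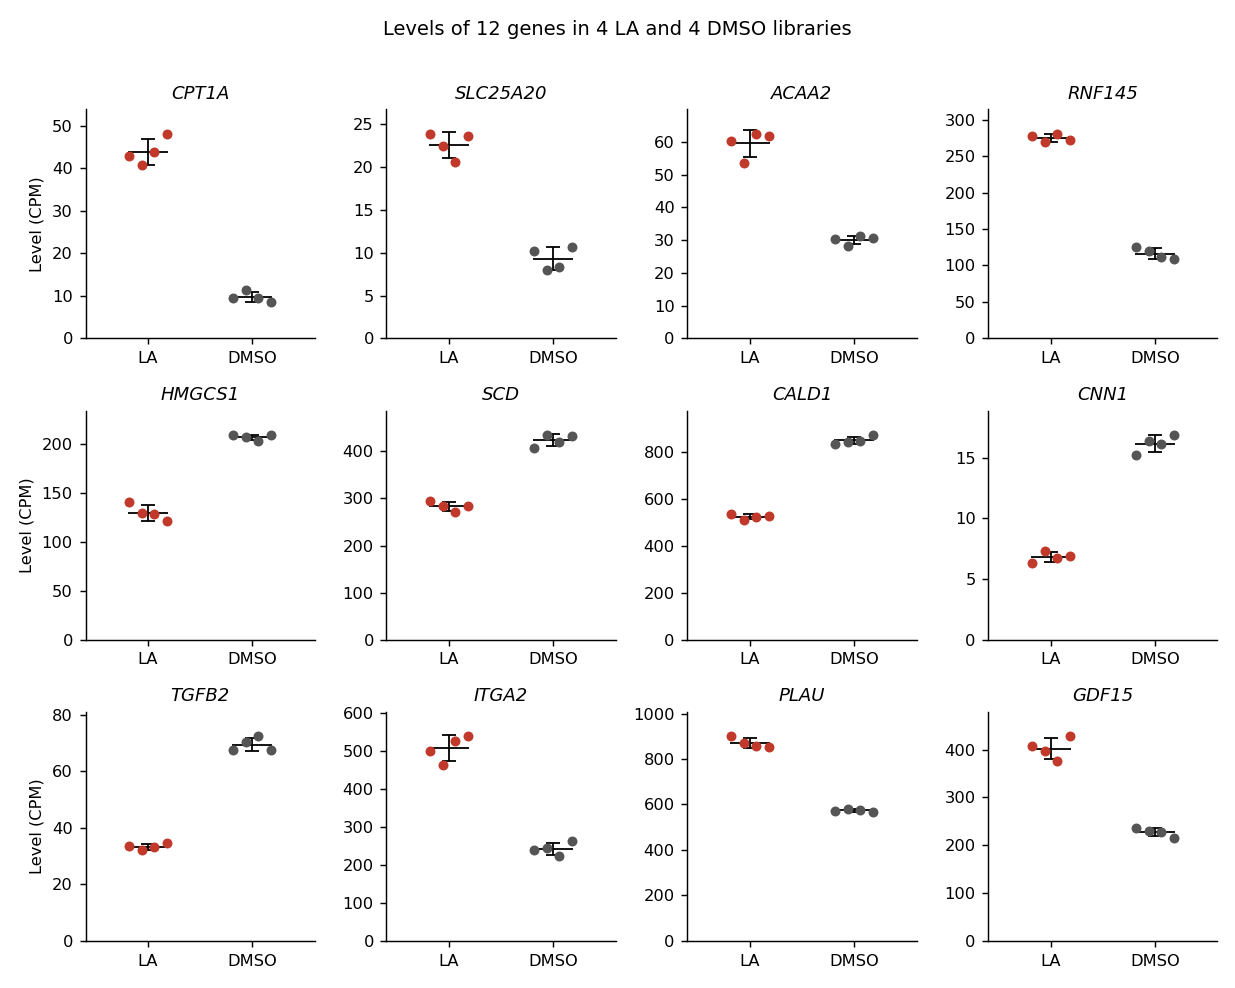
Normalized levels (CPM, vertical axes from 0) of 12 genes, with 1 point per library, LA left of DMSO, a line at the mean and bars of 1 SD (n = 4). CPT1A lies between 40.7 and 48.1 CPM in LA libraries and between 8.48 and 11.3 CPM in DMSO libraries, while HMGCS1, SCD, CALD1, CNN1 and TGFB2 lie lower in all 4 LA libraries than in any DMSO library.

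Sterol synthesis moved the other way. Of 23 tested genes of cholesterol synthesis 14 fell and none rose, with a median of -0.326. HMGCS1, which makes HMG-CoA, had 141, 129.6, 128 and 121 CPM in LA libraries, against 209, 207, 203 and 209 CPM in DMSO libraries. No LA library reached the lowest DMSO library, and the log2 fold change was -0.67 ± 0.050 (adjusted p = 6.5e-12). The falls ran along the pathway: ACAT2 at its start (-0.72 ± 0.064), the mevalonate kinase MVK (-0.42 ± 0.086) and decarboxylase MVD (-0.51 ± 0.097), the isoprenoid enzymes IDI1 (-0.39 ± 0.068) and FDPS (-0.30 ± 0.059), FDFT1, which makes squalene (-0.30 ± 0.059), and the late steps MSMO1 (-0.41 ± 0.063), SC5D (-0.33 ± 0.066) and DHCR7 (-0.43 ± 0.050). SQLE, the squalene epoxidase, fell by less, with 95.7 to 106 CPM in LA libraries, against 114 to 120.1 CPM in DMSO libraries (-0.24 ± 0.058, adjusted p = 0.00691). Leaving out single libraries gave 12 to 14 fallen members. INSIG1, which holds the SREBP escort protein SCAP in the endoplasmic reticulum and is itself a SREBP target, had 94.2, 87.8, 92.5 and 96.04 CPM in LA libraries, against 122, 119.6, 128 and 125 CPM in DMSO libraries, with no overlap (-0.42 ± 0.045, adjusted p = 2.4e-08). STARD4, a sterol carrier, fell by 0.47 ± 0.076. The transcripts of the SREBP factors themselves were not past the test, with SREBF1 at 0.069 (95% interval -0.058 to 0.20) and SREBF2 at -0.13 (-0.25 to -0.021). Genes of de novo fatty acid synthesis were also not past it, with 0 of 13 called and a median of -0.067, FASN at 0.056 and ACACA at -0.067. In that list 1 member was called lower by DESeq2, by limma voom and by a fit to the 8 libraries alone.

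Genes that make unsaturated fatty acids split. SCD, the stearoyl-CoA desaturase that makes oleate, had 294, 284, 272 and 285 CPM in LA libraries, against 406, 434, 420.4 and 434 CPM in DMSO libraries. The groups were well apart (-0.58 ± 0.045, adjusted p = 1.8e-11). FADS2, the first desaturase acting on linoleic acid on the way to arachidonic acid, had 101 to 115 CPM in LA libraries, against 123 to 131 CPM in DMSO libraries (-0.22 ± 0.051, adjusted p = 0.00394), and its neighbour in sequence FADS3 fell by 0.35 ± 0.079. HACD1, a dehydratase of chain elongation, fell by 0.47 ± 0.12. In contrast, the elongase ELOVL6 rose by 0.45 ± 0.080 (adjusted p = 0.00016). With these, 1 of 16 tested genes of desaturation and elongation rose and 4 fell.

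Of 13 tested genes that answer to the sterol receptor LXR 3 rose and none fell (median 0.069). RNF145, an E3 ligase of the endoplasmic reticulum reported to act on SCAP, had 278, 269, 280.4 and 272 CPM in LA libraries, against 125, 119.5, 112 and 109 CPM in DMSO libraries. Its adjusted p was as small as that of CPT1A (1.24 ± 0.050, adjusted p = 6.9e-19). ABCA1, the cholesterol exporter, had 19.1, 18.95, 19.1 and 24.3 CPM in LA libraries, against 11.9, 12.8, 12.6 and 16.6 CPM in DMSO libraries, with the highest value in LA replicate 4 and no overlap (0.60 ± 0.13, adjusted p = 0.00139). SREBF1, MYLIP and LPCAT3, other genes under LXR control, were at 0.069, -0.45 and 0.046, none past the test.

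Genes that activate fatty acids and build them into lipids showed single changes. ACSL4, which activates polyunsaturated fatty acids and is required for ferroptosis in many cells, had 197, 182, 196 and 195 CPM in LA libraries, against 221, 217, 223 and 232 CPM in DMSO libraries. All LA libraries lay below the DMSO libraries, by a small margin (-0.21 ± 0.052, adjusted p = 0.00608). LPCAT1, a lysophosphatidylcholine acyltransferase, rose by 1.05 ± 0.22 and SLC27A4, a fatty acid transporter and acyl-CoA synthetase, by 0.28 ± 0.056. GPAT3, which starts glycerolipid synthesis, had 35.5 to 37.1 CPM in LA libraries, against 21.4 to 27.1 CPM in DMSO libraries (0.61 ± 0.081). In the list of lipid droplet and triacylglycerol genes 3 of 21 rose and none fell, and in that of uptake, activation and remodelling 3 of 26 rose and 1 fell, against 4.91% risen and 3.41% fallen over all genes.

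Of 40 tested targets of the oxidative stress factor NRF2 20 rose and none fell, with a median of 0.225. HMOX1, which degrades heme and releases iron, had 49.9, 46.9, 58.3 and 58.96 CPM in LA libraries, against 29.8, 26.4, 27.2 and 24.4 CPM in DMSO libraries. The groups did not overlap, with LA libraries at about 2-fold the DMSO level (0.99 ± 0.11, adjusted p = 3.7e-08). SLC7A11, the cystine importer that feeds glutathione synthesis, had 30.4, 31.1, 31.9 and 33.5 CPM in LA libraries, against 19.4, 18.3, 16.8 and 20.3 CPM in DMSO libraries (0.77 ± 0.097, adjusted p = 5.9e-07). SQSTM1, the autophagy receptor that binds the NRF2 inhibitor KEAP1, rose by 0.64 ± 0.051, the quinone reductase NQO1 by 0.43 ± 0.061 and the xenobiotic exporter ABCC3 by 0.87 ± 0.15. PIR rose by 0.998, the pentose phosphate enzyme TALDO1 by 0.21, and UGDH, EPHX1 and MGST1 of detoxification by 0.34, 0.34 and 0.27. The ferritin chains FTL and FTH1, which store iron, rose by 0.57 ± 0.046 and 0.42 ± 0.075, although processed pseudogenes of both can share reads. AKR1C1, whose close paralogs can also share reads, rose by 2.15 from levels near the floor. When 1 library was left out, 17 to 19 members rose. Several classic targets were not past the test, including TXNRD1 at 0.073, SRXN1 at 0.18 and GCLC at 0.20, and the transcripts of NFE2L2 (0.063) and KEAP1 (0.10) stood near 0.

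GPX4 had 81.6 to 88.7 CPM in LA libraries, against 76.8 to 84.2 CPM in DMSO libraries, not past the test at 0.10 (95% interval -0.043 to 0.25). Among 39 tested ferroptosis regulators 5 rose and 2 fell, against 4.91% risen and 3.41% fallen over all genes. The iron genes SLC39A14, a transporter of iron and zinc, and STEAP3, a ferrireductase, rose by 0.28 ± 0.042 and 0.30 ± 0.048. DHCR7, which consumes 7-dehydrocholesterol, fell with the sterol genes. When 1 library was left out, 3 or 4 members rose, with 3 without LA replicate 1, DMSO replicate 1 or DMSO replicate 3. AIFM2, the ubiquinone reductase that protects membranes beside GPX4, was at 0.084, and PTGS2, often used as a ferroptosis marker, at -0.17, neither past the test. TXNRD2, the mitochondrial thioredoxin reductase, was the 1 fallen selenoprotein of 24 tested, with 42.2 to 45.7 CPM in LA libraries, against 59.1 to 62.01 CPM in DMSO libraries (-0.48 ± 0.084, adjusted p = 0.00014).

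**Figure D2:**
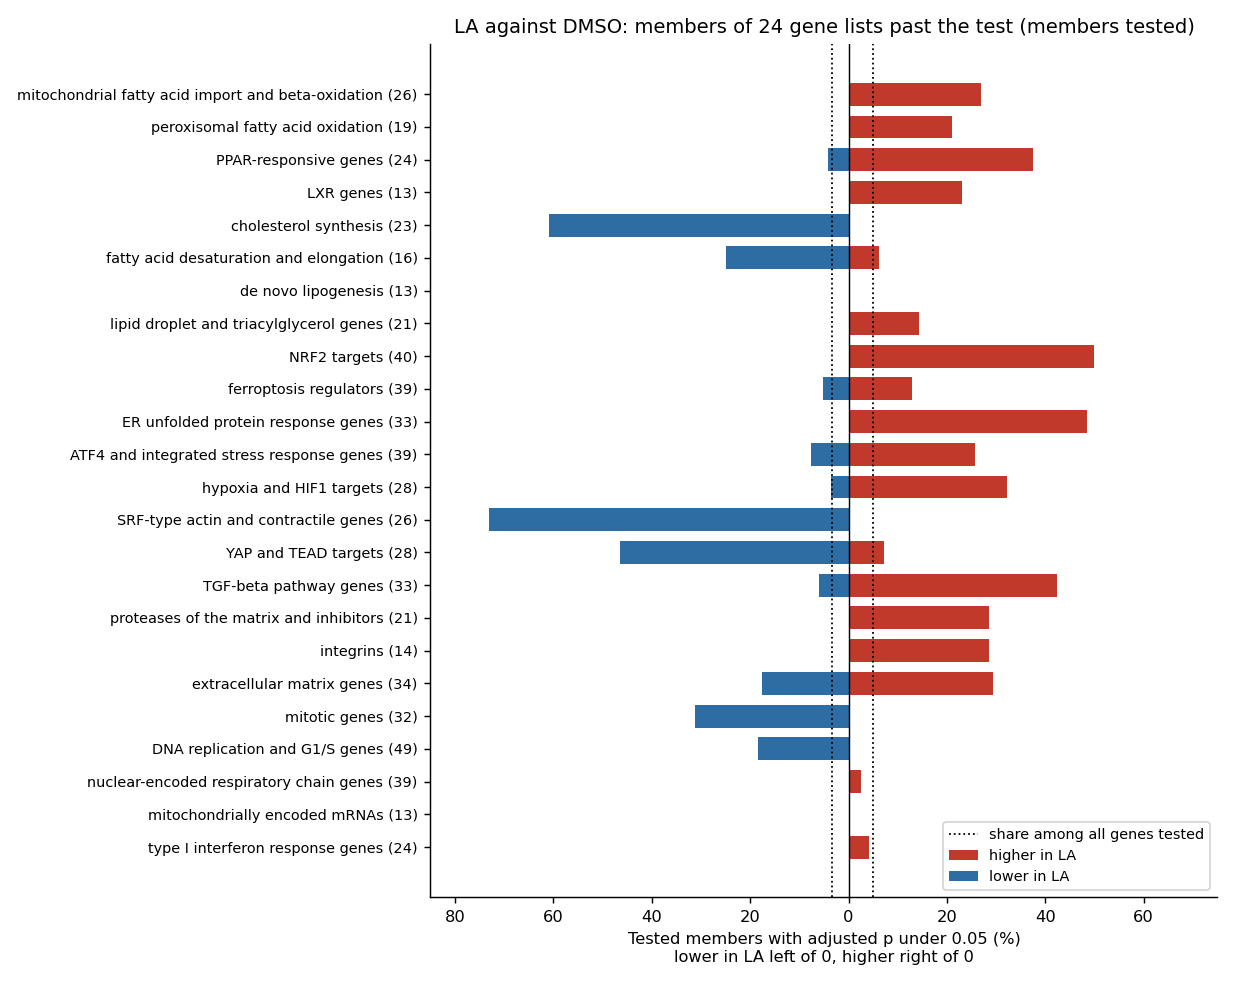
Share of tested members (%, horizontal axis) of 24 gene lists, named down the page with the number tested, that were higher (right of 0) or lower (left of 0) in LA than in DMSO libraries at an adjusted p under 0.05. Dotted lines mark the shares among all 16325 genes (4.91% higher and 3.41% lower). The lists were chosen with earlier results of these data known. The actin list has 19 of 26 members fallen, cholesterol synthesis 14 of 23 fallen, NRF2 targets 20 of 40 risen and ER stress genes 16 of 33 risen.

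Of 33 tested endoplasmic reticulum stress genes 16 rose, by small amounts, and none fell. HSPA5, the main chaperone of the endoplasmic reticulum, had 1348, 1295, 1345 and 1420 CPM in LA libraries, against 1082, 1092, 1057 and 1041 CPM in DMSO libraries. Each LA library exceeded each DMSO library, with a fold change of 0.34 ± 0.034 (adjusted p = 7.5e-09). EDEM1 and EDEM3, which send misfolded glycoproteins to degradation, rose by 0.35 ± 0.047 and 0.40 ± 0.059, and PDIA4 and HSP90B1, folding enzymes, by 0.26 ± 0.039 and 0.21 ± 0.044. The sensor kinase EIF2AK3 rose by 0.59 ± 0.11, DNAJB9 by 0.43 ± 0.098 and the transcription factor XBP1 by 0.23 ± 0.054. The list median was 0.176, and 11 to 14 members rose when 1 library was left out.

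The integrated stress response, which the kinase EIF2AK3 and others feed through ATF4, was mixed. GDF15, a secreted stress hormone, had 409, 397, 376 and 428 CPM in LA libraries, against 236, 229.9, 228 and 215 CPM in DMSO libraries, a clear separation (0.82 ± 0.062, adjusted p = 1.1e-11). CEBPB, a transcription factor, rose by 0.65 ± 0.091, DDIT4, an inhibitor of mTORC1, by 0.77 ± 0.17, and PHGDH of serine synthesis by 0.40 ± 0.067. ATF3 went the other way, with 10.04 to 12.97 CPM in LA libraries, against 14.6 to 17.7 CPM in DMSO libraries (-0.51 ± 0.089, adjusted p = 0.00014), as did the arginine transporter SLC7A1 (-0.24 ± 0.046) and STC2 (-0.24 ± 0.053). ATF4 itself (-0.067), ASNS (-0.066), TRIB3 (-0.036), CHAC1 (-0.028) and DDIT3 (0.14) were not past the test. The list counted 10 risen and 3 fallen of 39. When 1 library was left out, 6 to 8 members rose, with 6 without LA replicate 1. Of 20 tested cytosolic heat shock genes 1 was called.

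Genes of low-oxygen responses and glycolysis rose in part. VEGFA, the angiogenic factor, had 207, 206, 196 and 190 CPM in LA libraries, against 133, 129, 131 and 132 CPM in DMSO libraries. The lowest LA library lay well above the highest DMSO library (0.61 ± 0.067, adjusted p = 4.3e-08). CA12, a carbonic anhydrase, rose by 0.45 ± 0.092, P4HA1, a collagen prolyl hydroxylase, by 0.29 ± 0.067, and BHLHE40 by 0.29 ± 0.045, while HIF1A, the oxygen-regulated factor, fell to 311 to 322 CPM in LA libraries, against 386 to 414 CPM in DMSO libraries (-0.33 ± 0.053). ANGPTL4 counts in this list too. Of 28 tested members 9 rose and 1 fell, with a median of 0.148. PFKFB4, which makes an activator of glycolysis, had 39.5 to 49.3 CPM in LA libraries, against 25.4 to 27.4 CPM in DMSO libraries (0.76 ± 0.097), and the glucose transporter SLC2A1 fell by 0.29 ± 0.049. The glycolysis list had 8 risen of 30. That count was 4 to 6 when 1 library was left out. It was 4 without LA replicate 1 and 5 without LA replicate 2, LA replicate 3, DMSO replicate 1 or DMSO replicate 2. Nuclear-encoded respiratory chain genes had 1 risen of 39, UQCRC1, at 0.19 ± 0.040.

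The actin cytoskeleton had the largest share of fallen members of the 43 lists. The lists were chosen with earlier results of these data known, so this ranking is a description only. Serum response factor, SRF, works with the coactivators MRTFA and MRTFB, which are held in the cytoplasm by free actin monomers, and binds a short AT-rich element called the CArG box in genes of the contractile apparatus. Of 26 tested genes of this kind 19 fell and none rose, with a median of -0.234. Leaving out single libraries gave 17 to 19 fallen members. CALD1, caldesmon, had 538, 509.8, 522 and 529 CPM in LA libraries, against 835, 844, 846 and 872 CPM in DMSO libraries. All LA libraries lay far below the DMSO libraries (-0.70 ± 0.047, adjusted p = 1e-12).

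**Figure D3:**
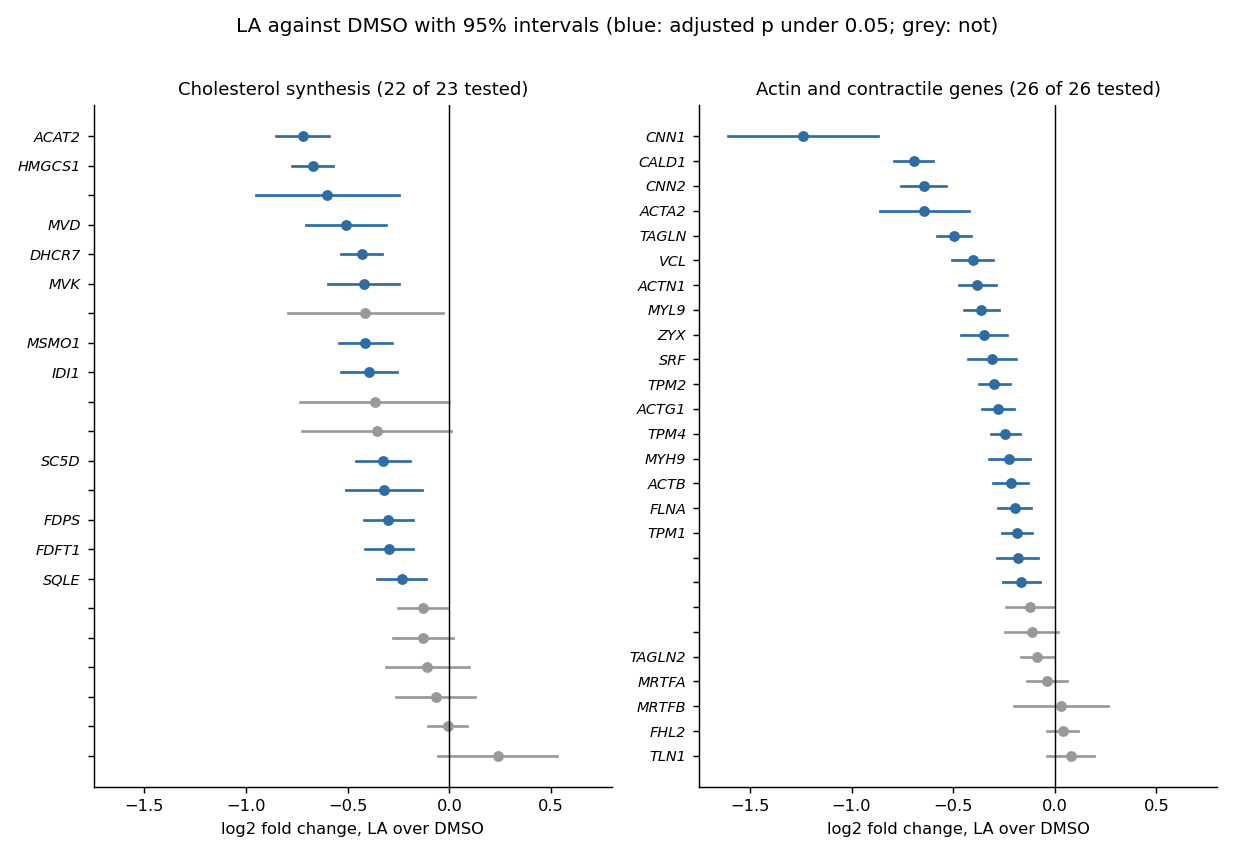
Log2 fold changes of LA over DMSO (horizontal axes) with 95% intervals for 22 of the 23 tested cholesterol synthesis genes and the 26 tested actin and contractile genes, blue where the adjusted p is under 0.05 and grey where not, with names beside the genes given in the text. All blue points lie left of 0, from -0.72 for ACAT2 to -0.24 for SQLE in the first panel, and with CNN1 lowest at -1.24 in the second.

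Calponin genes followed. CNN2 had 281, 287, 276 and 262 CPM in LA libraries, against 451, 425, 429 and 423 CPM in DMSO libraries, with a gap between the groups (-0.65 ± 0.055, adjusted p = 1.3e-10), and CNN1, at a lower level, had 6.36 to 7.31 CPM in LA libraries, against 15.2 to 16.9 CPM in DMSO libraries (-1.24 ± 0.18, adjusted p = 7.6e-06). TAGLN, transgelin, fell by 0.50 ± 0.042, and the actins fell too, ACTA2 by 0.64 ± 0.11, ACTG1 by 0.28 ± 0.038 and ACTB by 0.22 ± 0.043. ACTG1 alone took 6674 to 6911 CPM in LA libraries, against 8156 to 8389 CPM in DMSO libraries, so the change touched some of the most abundant transcripts, with the reserve that ACTB and ACTG1 share sequence with each other and with pseudogenes. The tropomyosins TPM1, TPM2 and TPM4 fell by 0.19 ± 0.037, 0.30 ± 0.038 and 0.24 ± 0.036, and the myosin genes MYL9 and MYH9 by 0.36 ± 0.043 and 0.22 ± 0.050. Focal adhesion and crosslinking proteins fell likewise, VCL by 0.40 ± 0.050, ZYX by 0.35 ± 0.055, ACTN1 by 0.38 ± 0.044 and FLNA by 0.20 ± 0.039. SRF itself, known as its own target, had 122, 131, 112 and 119.5 CPM in LA libraries, against 149, 152, 153 and 147 CPM in DMSO libraries, with no overlap (-0.31 ± 0.058, adjusted p = 0.00034). Transcripts of MRTFA (-0.038) and MRTFB (0.030) stood near 0, and TLN1 (0.078), TAGLN2 (-0.088) and FHL2 (0.038) were not past the test.

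CArG boxes stood in 9 of 48 promoter windows of the tested members, 18.8%, against 182 of 15967 windows of all tested genes with a sequence, 1.14%. The windows run from 250 bases before to 50 after each annotated start in RefSeq on GRCh38.p14, both strands were searched, and 22 members matched a window. By gene, 7 of 22 members had a match, against 173 of 10987 tested genes with a sequence. The genes with a match were ACTG1, ACTN1, CNN2, FHL2, FLNA, SRF and TPM4. FHL2 alone gave 3 of the 9 windows, out of its 4. The share was 2.69% of windows of all fallen genes and 0.873% of windows of all risen genes. The fallen genes include the list members ACTG1, ACTN1, CNN2, FLNA, SRF and TPM4, so their share is not separate from that of the list. The search was added after the falls had been seen, a match is a description of letters and not of binding, and the list itself was drawn up from genes known to answer to SRF. Stretches of 90 bases on the sense strand are shown for 5 fallen members and for FHL2, which carries a box and did not pass the test, with the box in capitals.
CNN2, chr19:1026479-1026568, plus strand: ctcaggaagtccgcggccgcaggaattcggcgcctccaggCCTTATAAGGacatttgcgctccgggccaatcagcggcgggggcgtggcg
ACTN1, chr14:68977688-68977777, minus strand: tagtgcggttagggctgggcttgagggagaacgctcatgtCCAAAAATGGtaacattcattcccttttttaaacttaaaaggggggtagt
ACTG1, chr17:81512844-81512933, minus strand: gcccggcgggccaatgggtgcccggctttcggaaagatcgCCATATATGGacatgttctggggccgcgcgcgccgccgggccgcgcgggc
SRF, chr6:43171179-43171268, plus strand: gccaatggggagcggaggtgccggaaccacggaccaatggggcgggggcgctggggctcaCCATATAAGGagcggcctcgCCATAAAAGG
FLNA, chrX:154374679-154374768, minus strand: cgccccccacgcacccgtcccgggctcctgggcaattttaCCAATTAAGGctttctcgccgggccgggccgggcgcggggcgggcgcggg
FHL2, chr2:105438565-105438654, minus strand: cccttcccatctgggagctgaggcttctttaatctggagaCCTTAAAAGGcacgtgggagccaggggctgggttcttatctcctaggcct
The box begins 89 bases before the start in CNN2, 94 in ACTG1 and FLNA and 171 in ACTN1, and SRF has a pair, 30 and 10 bases before it. The FHL2 stretch shown has its box 101 bases before 1 of the 4 starts of that gene. FHL2 had 214 to 217 CPM in LA libraries, against 199 to 216 CPM in DMSO libraries, overlapping groups.

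Among 28 tested targets of YAP and TEAD, factors that also read cell tension, 13 fell and 2 rose, with a median of -0.111. CCN2, connective tissue growth factor, had 1004, 1044, 1068 and 994 CPM in LA libraries, against 1548, 1527, 1565 and 1587 CPM in DMSO libraries. No LA library came near the DMSO libraries (-0.60 ± 0.066, adjusted p = 3.9e-08). CCN1, its relative, fell by 0.58 ± 0.046, ANKRD1 by 0.74 ± 0.077, AMOTL2 by 0.38 ± 0.047, AJUBA by 0.48 ± 0.057, the tissue factor gene F3 by 0.97 ± 0.082, and the kinases NUAK2 and LATS2 by 0.82 ± 0.19 and 0.25 ± 0.067. EDN1, which encodes the vasoconstrictor endothelin, had 12.7, 13.8, 14.5 and 13.1 CPM in LA libraries, against 30.4, 27.5, 27.3 and 28.1 CPM in DMSO libraries. All 4 LA libraries lay far below the DMSO libraries (-1.07 ± 0.10, adjusted p = 3.4e-09). THBS1, thrombospondin, among the most abundant matrix transcripts, had 3334 to 3566 CPM in LA libraries, against 5100 to 5715 CPM in DMSO libraries (-0.64 ± 0.068). When a library was left out, 12 or 13 members fell. The risen genes were WWTR1, which encodes TAZ, the paralog of YAP (0.54 ± 0.056), and the phosphatase PTPN14 (0.35 ± 0.070). YAP1 itself was at 0.11 (95% interval 0.011 to 0.21). Several of these genes, ANKRD1, CCN1 and CCN2 among them, are known to answer to SRF as well.

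TGF-beta pathway genes changed in both directions, with 14 of 33 tested members risen and 2 fallen (median 0.191). TGFB2, a ligand, had 33.6, 31.97, 33.1 and 34.6 CPM in LA libraries, against 67.4, 70.4, 72.3 and 67.6 CPM in DMSO libraries. DMSO libraries held about 2-fold more than LA libraries (-1.06 ± 0.11, adjusted p = 1.3e-08). TGFB1 rose by 0.20 ± 0.048 and BMP2, a ligand of the bone morphogenetic branch, by 0.52 ± 0.13, at 8.87 to 10.6 CPM in LA libraries, against 6.20 to 7.47 CPM in DMSO libraries. Of the receptors, ACVR1, which signals for bone morphogenetic proteins, rose by 0.53 ± 0.061 and TGFBR2 by 0.29 ± 0.049. The inhibitory SMAD6 had 33.01, 37.6, 38.9 and 41.1 CPM in LA libraries, against 19.98, 24.4, 22.9 and 20.8 CPM in DMSO libraries, with no overlap (0.77 ± 0.087, adjusted p = 5.5e-08). The ID genes, targets of bone morphogenetic signalling that restrain differentiation factors, rose together, ID1 by 0.46 ± 0.053, ID2 by 0.80 ± 0.15 and ID3 by 0.49 ± 0.064. ATOH8, another gene that answers to bone morphogenetic proteins, had 1.95, 3.25, 5.21 and 3.83 CPM in LA libraries, against 0.894, 1.39, 1.07 and 1.17 CPM in DMSO libraries (1.64 ± 0.30, adjusted p = 0.00017). SMAD3 and LTBP1 rose by 0.22 ± 0.053 and 0.27 ± 0.051. The fallen members were TGFB2 and SMURF2, a ubiquitin ligase that acts on this pathway (-0.23 ± 0.059, adjusted p = 0.0115), and 1 was called lower without DMSO replicate 1.

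Of 21 tested matrix proteases and inhibitors, a class this line is often used to study, 6 rose and none fell (median 0.154), and 4 to 6 rose when 1 library was left out. PLAU, the urokinase protease, had 899, 869, 859 and 853 CPM in LA libraries, against 571, 580.4, 578 and 567 CPM in DMSO libraries. LA libraries lay within a narrow band above every DMSO library (0.60 ± 0.044, adjusted p = 6.5e-12). Its receptor PLAUR rose by 0.33 ± 0.041, and the matrix metalloproteases MMP14 and MMP2, of which MMP14 activates MMP2, by 0.27 ± 0.043 and 0.24 ± 0.041. Of the integrins 4 of 14 rose and none fell. The collagen receptor chain ITGA2 had 501, 464, 528 and 539 CPM in LA libraries, against 239.9, 244, 225 and 262 CPM in DMSO libraries, about a 2-fold difference (1.07 ± 0.088, adjusted p = 7.5e-11), while ITGA5, ITGAV and ITGB5 rose by 0.25, 0.28 and 0.17. The common beta chain ITGB1 was at 0.029, not past the test.

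Matrix genes went both ways, with 10 of 34 risen and 6 fallen. COL6A3 rose by 0.41 ± 0.070, LAMA4 by 0.68 ± 0.082, LAMB1 by 0.22 ± 0.046 and COL1A2 by 0.36 ± 0.077. SPARC, AGRN and COL10A1 fell by 0.19 ± 0.040, 0.32 ± 0.070 and 0.62 ± 0.13. Leaving out single libraries gave 7 to 9 risen and 4 to 6 fallen members.

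A minority of cell cycle genes passed the test, all of those lower and by small amounts. Of 49 tested DNA replication and G1/S genes 9 fell and none rose (median -0.100). CDC6, which loads the replicative helicase, had 95.6, 95.1, 90.9 and 91.9 CPM in LA libraries, against 115, 117, 120.4 and 115 CPM in DMSO libraries, with no overlap (-0.32 ± 0.041, adjusted p = 6.4e-07). RRM2, CDK2, POLE and CCND1 fell by 0.26 ± 0.043, 0.27 ± 0.054, 0.22 ± 0.050 and 0.17 ± 0.037. A fit to the 8 libraries alone called 20 members lower. Among mitotic genes 10 of 32 fell and none rose (median -0.118), including ANLN (-0.30 ± 0.055) and KIF23 (-0.27 ± 0.055). When 1 library was left out, only 5 to 8 fell, with 5 without LA replicate 2 or DMSO replicate 1 and 6 without LA replicate 4. MKI67, the proliferation marker, was at -0.016 (95% interval -0.20 to 0.16). In these bulk libraries, fewer cells of a type and less RNA per cell cannot be told apart.

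Marker lists of other cells were read in the same libraries. Mesenchymal and fibrosarcoma markers summed to 14894 to 15468 CPM in LA libraries and 13481 to 14662 CPM in DMSO libraries, with all 18 members tested and VIM at -0.053. Epithelial markers had 9 of 19 members tested and summed to 765.3 to 824.3 CPM in LA libraries and 938.3 to 1007 CPM in DMSO libraries, nearly all of it KRT8 and KRT18, which fibrosarcoma cells also express. EPCAM and GRHL2, defining epithelial genes, had 0 counts in all 8 libraries. Of the tested members 4 fell, KRT8 by 0.28 ± 0.055, KRT18 by 0.32 ± 0.051, KRT14 by 1.45 ± 0.36 and KRT17, the largest fall among genes with a mean of at least 2 CPM and no overlap, which had 0.359, 1.34, 1.18 and 0.774 CPM in LA libraries, against 4.10, 4.72, 3.74 and 4.46 CPM in DMSO libraries (-2.21 ± 0.35, adjusted p = 2.7e-05). KRT14 and KRT17 are close paralogs. Blood cell markers had 3 of 16 members tested, none called, and summed to 6.19 to 7.74 CPM in LA libraries and 4.64 to 6.52 CPM in DMSO libraries, with HBA1 at 0 counts. Hepatocyte markers had 1 of 14 tested, at 0.513 to 0.693 CPM in LA libraries and 0.509 to 0.789 CPM in DMSO libraries, and APOB at 0 counts. The part of any such cells in the other results was not tested.

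Linoleic acid was also given with RSL3, and RSL3+LA against RSL3 shares no library with LA against DMSO. That pair had 1564 calls, 9.58% of tested genes, with 617 risen (3.78%) and 947 fallen (5.8%). When counts were scaled by library totals alone, the split turned to 928 risen and 635 fallen. Of the 1358 genes called for LA alone, 1294 (95.3%) had the same sign with RSL3 present, and 770 were called in the same direction in both pairs, 56.7% of the calls for LA alone and 49.2% of those with RSL3. The shared calls held 47.2% of the 801 risen genes and 70.4% of the 557 fallen genes. Risen genes had a median of 0.306 for LA alone and 0.205 with RSL3, fallen genes -0.299 and -0.290.

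The leading genes repeated. CPT1A had 50.5, 44.4, 40.9 and 41.5 CPM in RSL3+LA libraries, against 7.70, 10.1, 9.27 and 8.84 CPM in RSL3 libraries (2.30 ± 0.091, adjusted p = 4.4e-19), and the gap between groups was as wide as without RSL3. RNF145 rose by 1.07 ± 0.049, SLC25A20 by 1.19 ± 0.12 and ITGA2 by 0.74 ± 0.087. CALD1 had 468, 497, 542 and 557 CPM in RSL3+LA libraries, against 829.9, 855, 884 and 877 CPM in RSL3 libraries (-0.74 ± 0.047), without overlap. TGFB2 fell by 1.13 ± 0.11, HMGCS1 by 0.80 ± 0.050 and SCD by 0.71 ± 0.045. By list, 17 of 23 cholesterol synthesis genes fell (median -0.427), as did 20 of 26 actin genes (median -0.314) and 16 of 28 YAP and TEAD genes (median -0.257), none of them with a risen member apart from 2 in the last. Oxidation genes had 7 risen and 1 fallen of 26.

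Fewer stress genes were called higher by LA beside RSL3 than without it, as over all genes (3.78% against 4.91%). Of the NRF2 targets 12 rose and 1 fell with RSL3 (median 0.126), and of the ER stress genes 5 rose (median 0.076). Of the integrated stress genes 3 rose and 9 fell (median -0.007), against 10 risen and 3 fallen for LA alone. Of 20 cytosolic heat shock genes 7 fell and none rose (median -0.084), against 1 risen and none fallen for LA alone. Over all genes 5.8% fell with RSL3 and 3.41% without it. Whether the change by LA differed with RSL3 was tested as an interaction, which called 4 genes of 16325 (0.0245%), all with a lower change beside RSL3, while 985 genes had an unadjusted p under 0.05. The interaction also crosses the division in sample numbering, whose part in it was not tested. Without the filter on low counts it called 132 genes, 78 of them with a higher change beside RSL3 and 54 with a lower one, these 4 included. HMOX1 had 114, 112, 81.3 and 79.2 CPM in RSL3+LA libraries, against 124, 125, 126 and 156 CPM in RSL3 libraries. Although LA alone raised it, in RSL3+LA libraries it lay below every RSL3 library, so that the fold change was -0.46 ± 0.10 (adjusted p = 0.00196) and the interaction -1.45 ± 0.15 (adjusted p = 4.3e-07). DDIT4 had 6.34, 7.40, 4.30 and 3.90 CPM in RSL3+LA libraries, against 10.2, 10.3, 9.06 and 9.81 CPM in RSL3 libraries, also below without overlap, with an interaction of -1.61 ± 0.24 (adjusted p = 0.0007). HMOX1 and DDIT4 are the 2 genes called in opposite directions in the 2 pairs.

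SLC7A11 had 42.04, 38.2, 31.3 and 31.1 CPM in RSL3+LA libraries, against 36.4, 33.7, 35.02 and 37.3 CPM in RSL3 libraries, overlapping groups (0.003 ± 0.092), with an interaction of -0.76 ± 0.13 (adjusted p = 0.00913). That call was lost without DMSO replicate 3 (interaction -0.697, adjusted p = 0.0708) and by limma voom (adjusted p = 0.149). NPC1, which exports cholesterol from lysosomes, had 96.3, 89.98, 96.1 and 84.7 CPM in RSL3+LA libraries, against 111, 107, 107 and 118 CPM in RSL3 libraries, and an interaction of -0.39 ± 0.067 (adjusted p = 0.00677), with LA alone at 0.12. HSPA6, a stress-inducible chaperone with close paralogs, had 2.41, 2.37, 1.23 and 1.82 CPM in RSL3+LA libraries, against 6.25, 6.45, 5.34 and 7.05 CPM in RSL3 libraries (-1.68 ± 0.20, adjusted p = 1.2e-07), and without RSL3 it was at -0.34, not past the test. DESeq2 with its default filter on mean counts gave an adjusted p to 817 genes only and called 37 of them, HMOX1 included, while SLC7A11, NPC1 and DDIT4 were filtered away. With that filter turned off, a setting chosen after seeing the data, DESeq2 called 6 genes, and all 4 edgeR calls were among them.

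**Figure D4:**
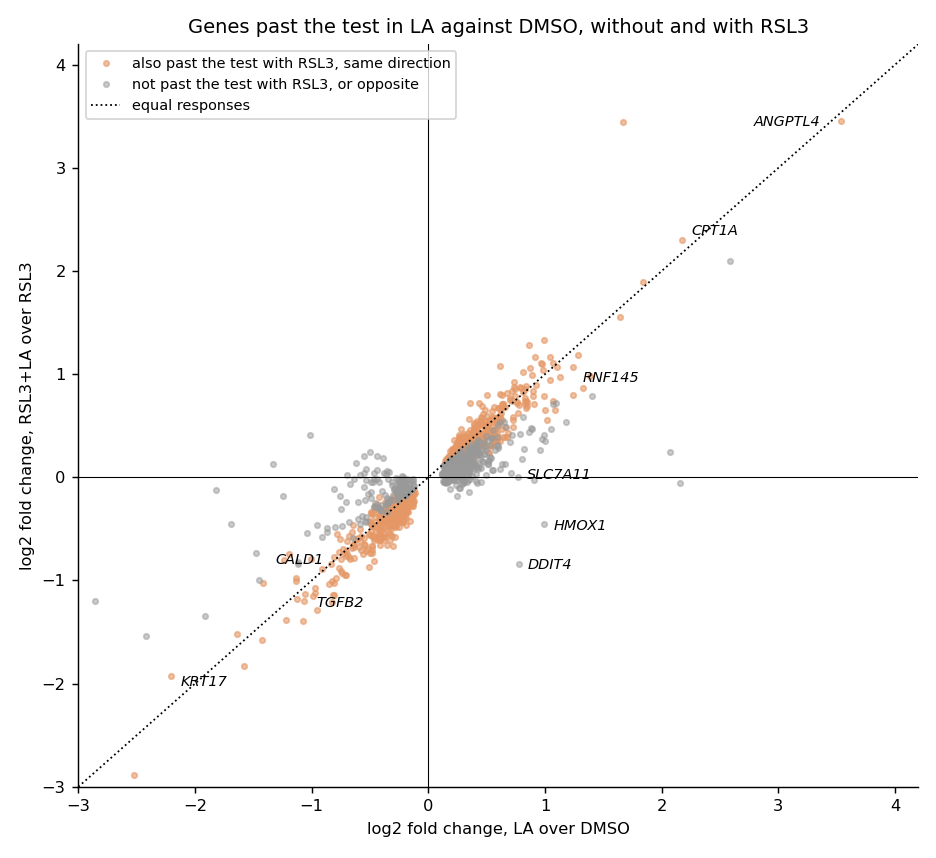
Log2 fold changes of the 1358 genes called in LA over DMSO (horizontal axis) against those of RSL3+LA over RSL3 (vertical axis), 1 point per gene, orange where called in the same direction with RSL3, and a dotted line of equal values. Of the points, 1294 have the same sign on both axes, while HMOX1 and DDIT4 lie right of 0 and below it.

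CLA18:2 differs from LA in that its double bonds are conjugated. Both acids were given at 80 µM overnight, so the isomers were compared directly as 1 pair. CLA18:2 over LA called 4929 genes, 30.2% of those tested, of which 2551 were higher (15.6%) and 2378 lower (14.6%). The isomers share the LA libraries with the comparison above, so values are set side by side only. Of the 26 mitochondrial oxidation genes 7 were higher and 3 lower with CLA18:2 than with LA (median 0.007), and none of the 7 that LA raised was called lower. CPT1A had 58.5, 53.6, 54.2 and 58.9 CPM in CLA18:2 libraries, against 40.7 to 48.1 CPM in LA libraries (0.36 ± 0.079, adjusted p = 0.00049). RNF145 had 291, 274, 269 and 271 CPM in CLA18:2 libraries, against 269 to 280.4 CPM in LA libraries (0.007, 95% interval -0.091 to 0.11), ACAA2 was at 0.078 (-0.038 to 0.19) and SLC25A20 at 0.21 (-0.016 to 0.43), none of the last 3 past the test. ETFDH, ACADVL and ETFA were higher by 0.46 ± 0.071, 0.36 ± 0.068 and 0.17 ± 0.052, and ETFB was at 0.032, not past the test.

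Sterol genes stood lower still with the conjugated isomer, with 17 of 23 below LA and 1 above (median -0.399). HMGCS1 had 91.9, 81.2, 85.2 and 85.2 CPM in CLA18:2 libraries, against 121 to 141 CPM in LA libraries (-0.60 ± 0.051), and SCD and INSIG1 were lower by 1.01 ± 0.046 and 0.87 ± 0.047. The actin list had 16 of 26 lower and 1 higher, with CNN2 at -0.64 ± 0.055 and CALD1 at -0.30 ± 0.047, while TPM2 (-0.11 to 0.041) and FLNA (-0.029 to 0.13) had 95% intervals around 0. Of 33 TGF-beta genes 17 were lower than with LA and 3 higher. SMAD6, ID1 and ID3, which LA raised, were lower by 0.73 ± 0.087, 0.22 ± 0.052 and 0.38 ± 0.064, and TGFB2, which LA lowered, was lower again by 1.245 ± 0.12. ATOH8 had 0.908, 0.993, 1.29 and 1.10 CPM in CLA18:2 libraries, against 1.95 to 5.21 CPM in LA libraries (-1.73 ± 0.30, adjusted p = 2e-05).

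Stress and cell cycle genes also differed between the isomers. Of 40 NRF2 targets 36 were higher with CLA18:2 and 1 lower (median 0.842), of 33 ER stress genes 30 were higher and 1 lower, and of 39 integrated stress genes 26 were higher and 2 lower. HMOX1 had 375, 303, 314 and 291 CPM in CLA18:2 libraries, against 46.9 to 58.96 CPM in LA libraries (2.58 ± 0.11, adjusted p = 5.7e-20), and the groups were far apart. SLC7A11 was higher by 2.63 ± 0.090 and SQSTM1 by 2.11 ± 0.052. ATF3 and KLF6, which fell with LA, were higher with CLA18:2 than with LA (0.83 and 0.30). The largest differences upward were GCNT3, a glycosyltransferase, with 23.8, 19.1, 20.7 and 20.9 CPM in CLA18:2 libraries, against 0.130 to 0.308 CPM in LA libraries, the pseudogene NMRAL2P (3.92), AKR1B10 (3.68) and the chemokines CXCL3 (3.24) and CXCL8 (3.20). Replication and mitotic genes were lower in 39 of 49 and 30 of 32. GPX4 was at -0.11 (95% interval -0.25 to 0.040).

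**Figure D5:**
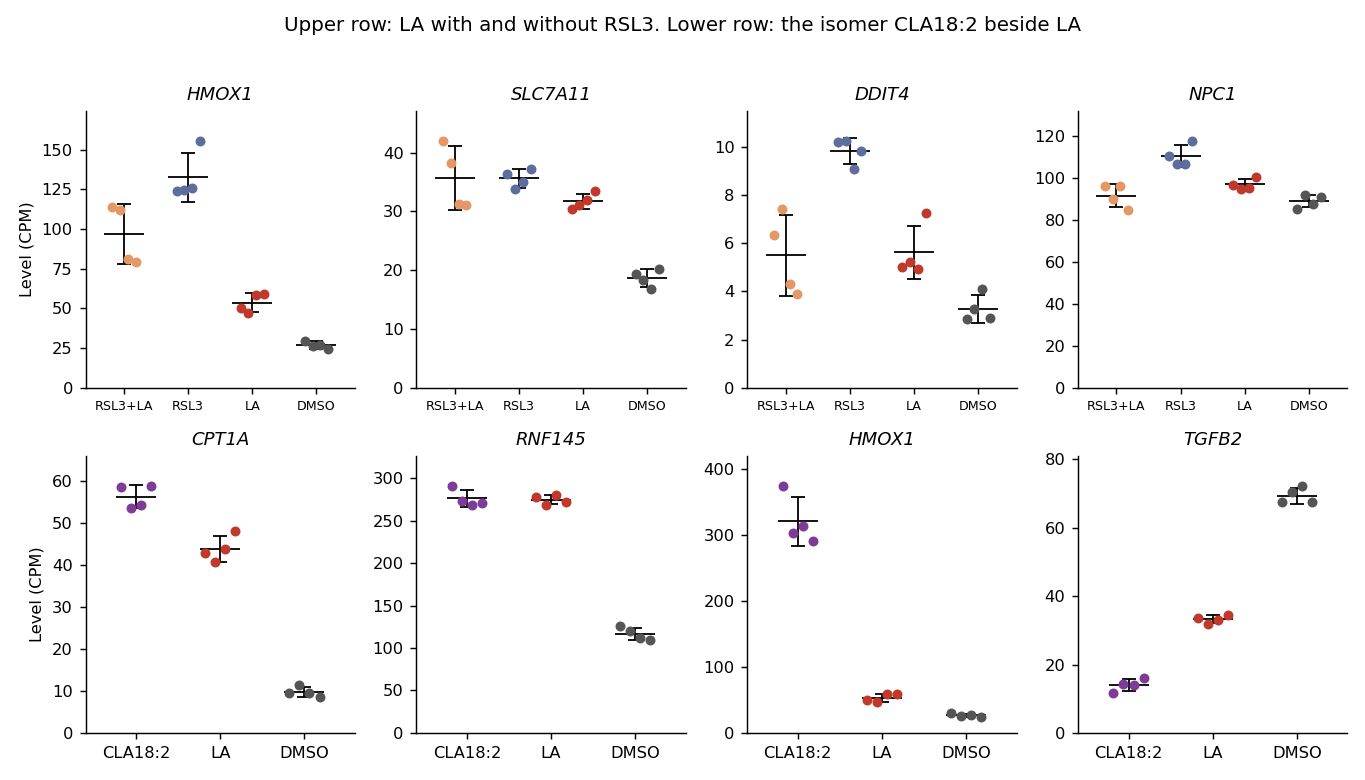
Normalized levels (CPM, vertical axes from 0), 1 point per library, with a line at the mean and bars of 1 SD (n = 4). The upper row shows the 4 interaction genes in RSL3+LA, RSL3, LA and DMSO libraries, and the lower row CPT1A, RNF145, HMOX1 and TGFB2 in CLA18:2, LA and DMSO libraries. HMOX1 is lower in RSL3+LA than in RSL3 libraries and higher in LA than in DMSO libraries, and RNF145 lies at the same height in CLA18:2 and LA libraries.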

How the data were processed

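The deposited tables, 1 per group, hold raw counts per gene, made by the authors with HISAT, SAMtools and featureCounts on hg38, per the submitters' processing notes, which also name DESeq2. Versions, the annotation and the strand setting are not given in the sources used here, so reads of a gene and an antisense partner cannot be told apart, and close paralogs may share reads. Per the labels' protocols, total RNA was read as 150-base pairs on an Illumina NovaSeq instrument. The sample labels write mM for the acids and the design text µM, and µM is used.

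Genes passing edgeR's default filter over 7 groups (16325, holding 99.91% of counts) were scaled by TMM and fitted on all 28 libraries with 1 mean per group in edgeR 4.0.16 (R 4.3.3), and contrasts were tested by quasi-likelihood with Benjamini-Hochberg adjustment at 0.05. SE is the size of the log2 fold change over the square root of F, and intervals are at 95%. The fit was tested on simulated data. Totals of 16226270 to 24286824 counts over all 28 libraries set the counting precision, and 3 counts is the limit that 0 allows, for counting error only.

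Members and the 43 lists were chosen with earlier results of these data known. Named genes are 55 fixed ones, list members, the 15 largest changes each way without overlap at a mean of at least 2 CPM, and the 5 largest each way in the other comparisons. Some genes the rule takes are not reported here. RAB11B and the CArG box were added after values were seen. Of the list symbols, 1063 of 1070 matched and 937 were tested. Alternatives were library totals, DESeq2 size factors, no filter, the groups of the contrast alone, a replicate block, limma voom 3.58.1, DESeq2 1.42.0 (with and, added after seeing the data, without its independent filtering) and leaving out each library. Same-numbered LA and DMSO libraries had residual correlations of 0.001, 0.037, -0.012 and -0.040, so the numbers were not used as pairs. Replicate libraries differed by more than sampling noise, with a chi-square per degree of freedom of at least 2.58 in the LA and DMSO groups. Figures were drawn with matplotlib 3.10.9 in Python 3.11.15.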

Additional observations from a re-analysis of the deposited data

Results flagged for a closer look

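In 168 groups of 4 libraries, 13 single libraries lay far from the others of their group by Dixon's test, where chance gives about 1 in 20 groups. Of these, 6 were LA libraries and 3 were LA replicate 4.

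LA replicate 4 was high for ANGPTL4 at 2.53 CPM, for ABCA1 at 24.3 CPM and for the ferritin chain FTH1 at 264.2 CPM. ABCA1 had a fold change of 0.50 without that library (adjusted p = 0.0152), by edgeR's quasi-likelihood test. LA replicate 2 was low for ACSL4 at 182.1 CPM, LA replicate 3 stood apart for GPX4 at 81.6 CPM, and LA replicate 1 was high for the receptor kinase EPHB1 at 11.9 CPM.

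DMSO replicate 1 stood apart for ANGPTL4 at 0.368 CPM, PLIN2 at 0.0526 CPM, ITGB2-AS1 at 3.68 CPM and LAG3 at 4.94 CPM. DMSO replicate 2 stood apart for ENSG00000275437 at 2.64 CPM, and DMSO replicate 4 for the transferrin receptor TFRC at 1135 CPM and for EPHB1 at 3.68 CPM.

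The change by LA differed with and without RSL3 by a test of the difference itself in 4 genes. The interaction was -1.61 for DDIT4, -1.45 for HMOX1, -0.76 for SLC7A11 and -0.39 for NPC1.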

How the results depend on the processing

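LA against DMSO called 1358 genes, and under other settings 1378 with library totals, 1363 with DESeq2 size factors, 1273 without the filter on low counts, 1431 with limma voom and 1575 with DESeq2. A fit to the 8 libraries alone called 2394 (1235 higher and 1159 lower), holding 99.9% of the 1358. Leaving out 1 library gave 1025 to 1146 calls. With the replicate number as a block, the count was 1350, and the pairing had no support in the residuals. RSL3+LA against RSL3 gave 1071 to 1439 calls without 1 library and CLA18:2 against LA 4366 to 4565. The interaction called 3 to 5 genes without 1 library, 132 without the filter (78 higher and 54 lower), where the cause was not tested, and 37 with DESeq2 (1 higher and 36 lower), whose own filter left 817 of 16325 genes with an adjusted p. Without that filter, added after seeing the data, DESeq2 called 6, and 1510 for LA against DMSO. Detected genes differed by -622.5 at a common total, by -171.5 with at least 5 counts (exact permutation p = 0.0857) and by -610.5 without thinning (exact permutation p = 0.0857). Leaving out 1 library gave -765.2 (LA replicate 2) to -328.8 (LA replicate 4), where 3 against 4 allows no exact permutation p under 0.0571. The mitochondrial share differed by -0.5148 to -0.1841 percentage points without 1 library. Without the filter, all 13 mitochondrially encoded mRNAs were called lower. Of the 282 called genes among the 301 named or listed ones tested for it, 206 stayed called without any 1 library and 237 without LA replicate 4. No result changed sign with a call. Genes near the floor, such as ANGPTL4 and AKR1C1, have rough folds at this depth.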

Other observations

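Transcripts beside ANGPTL4 rose with it. RAB11B-AS1, an antisense RNA on chromosome 19 (chr19:8374373-8390685, minus strand), ends at the base where ANGPTL4 (chr19:8363289-8374373, plus strand) ends, and had 7.59, 6.62, 5.26 and 7.25 CPM in LA libraries, against 2.31, 1.90, 1.85 and 1.40 CPM in DMSO libraries. The groups were apart, with a log2 fold change of 1.84 ± 0.20 (edgeR adjusted p = 3.2e-08) and 1.89 ± 0.21 with RSL3. RAB11B (chr19:8389981-8404434, plus strand), a GTPase of recycling endosomes whose start overlaps the antisense gene, had 145, 154, 136 and 150 CPM in LA libraries, against 88.1, 96.99, 98.8 and 93.7 CPM in DMSO libraries, again without overlap (0.63 ± 0.062, edgeR adjusted p = 3e-09). RAB11B was picked after its values had been seen, and without a stated strand setting reads in the shared stretches cannot be assigned to one gene.

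Among the largest rises were receptors and signalling genes outside the lists. ADGRG1, an adhesion G protein-coupled receptor, had 64.4 to 66.99 CPM in LA libraries, against 26.4 to 32.2 CPM in DMSO libraries (1.13 ± 0.081), and BDKRB1, the bradykinin B1 receptor, rose by 1.09 ± 0.20. STRA6, the retinol transporter, rose by 1.38 ± 0.24, the cytokine receptor IL21R by 1.33 ± 0.21, the potassium channel KCNJ15 by 1.24 ± 0.24 and the sialyltransferase ST6GAL2 by 1.05 ± 0.085. Large falls included S1PR1, the sphingosine 1-phosphate receptor, with 5.53 to 7.23 CPM in LA libraries, against 14.5 to 15.99 CPM in DMSO libraries (-1.22 ± 0.15), EGF, with 3.38 to 4.41 CPM in LA libraries, against 8.37 to 9.67 CPM in DMSO libraries (-1.20 ± 0.16), GDF6, a bone morphogenetic ligand (-1.42 ± 0.22), and the antisense RNA NECTIN3-AS1 (-1.42 ± 0.16). All of these had adjusted p values under 0.05 by edgeR's quasi-likelihood test. LAG3 fell by 1.33 ± 0.35, a call lost without LA replicate 4 (adjusted p = 0.0586) or DMSO replicate 1 (adjusted p = 0.066).

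Growth factor feedback was mixed, with 4 of 23 MAPK feedback genes risen and 3 fallen, against 4.91% risen and 3.41% fallen over all genes. DUSP10, a phosphatase of stress kinases, rose by 0.72 ± 0.078 and PHLDA1 by 0.56 ± 0.057, while DUSP1 fell by 0.49 ± 0.080 and the EGF receptor ligands HBEGF and NRG1 by 0.41 ± 0.048 and 0.35 ± 0.045. The metallothionein genes MT2A and MT1E, which are close paralogs, rose by 0.35 ± 0.058 and 0.29 ± 0.057, and the zinc exporter SLC30A1 by 0.30 ± 0.060, whereas the importer SLC39A10 fell by 0.29 ± 0.061. Of 43 lysosome and autophagy genes 7 rose and none fell, against the same 4.91% and 3.41% over all genes. The risen members included CTSD (0.34 ± 0.053) and CTSL (0.25 ± 0.046). CSF1 and IRAK2 rose by 0.54 ± 0.066 and 0.56 ± 0.096, and IL11 fell by 0.28 ± 0.053. Type I interferon genes had 1 risen of 24, IFI44 (0.80 ± 0.18).

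Other promoter motifs were counted in the same windows, on both strands. The sterol regulatory element core TCACNCCAC was in 0 of 25 windows of cholesterol synthesis genes and 1.06% of all windows of tested genes. The direct repeat core GGNCAAAGG was in 1 of 25 windows of PPAR-responsive genes against 1.84%, the antioxidant response element core TGACNNNGC in 26.3% of NRF2 target windows against 14.4%, and the hypoxia response element core ACGTG in 60.6% of hypoxia gene windows against 25.2%. These are counts of letters and say nothing of binding.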
